A study of Mus musculus with 36 samples.

Results

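A set of 9 genes that move calcium and other ions across the membranes of heart muscle cells were followed through the differentiation of mouse embryonic stem cells: Cacna1c, Slc8a1, Ryr2, Casq2, Atp2a2, Pln, Sln, Hcn4 and Kcnj3. They were taken by symbol from 37561 gene entries, and each of the 9 had a single entry in all 6 tables. RNA was measured in 36 libraries, 3 in each of 12 groups, from AB2.2 mouse embryonic stem cells and from AB2.2 cells in which the long noncoding RNA gene LncCPR had been deleted (AB2.2-LncCPR-/-). Both genotypes were sampled as undifferentiated cells at day 0, grown with leukemia inhibitory factor, and as whole embryoid bodies at days 3, 5, 8, 10 and 12 after this factor was withdrawn and hanging drops were set up. An embryoid body is a ball of cells in which derivatives of all germ layers, heart muscle among them, form side by side. The deletion was made with Cas9 and a pair of guide constructs on either side of the gene, in singly sorted cells, and the labels do not give the number of knockout lines or say that libraries of a group came from separate cultures. The p-values below therefore measure the spread between these libraries, which may be technical or that of 1 clone. The deleted gene's own level was not analysed here, because its name was not matched to an entry.

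In a heart muscle cell, calcium enters through the L-type channel at each beat and opens the ryanodine receptor, which releases the larger store held in the sarcoplasmic reticulum. The SERCA pump returns calcium to that store under the brake of phospholamban and sarcolipin, and the sodium-calcium exchanger carries the rest out of the cell. Pacemaker channels and acetylcholine-gated potassium channels set how often the cell fires. Embryonic heart cells begin to beat while this machinery is still being assembled.

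Expression is given in FPKM, fragments scaled by transcript length and by the mapped fragments of the library, which allows levels of different genes to be compared per length. Sums per library ran from 294740 to 403675 FPKM, and 11248 to 13183 genes lay above 1 FPKM. Absolute depth is unknown, and relative depth, read from genes with single fragments, ran from 0.551 to 1.81 times the median library. The 10 highest genes made up 11.3% to 30.3% of a library's sum. Control replicate 1 of day 3 had the lowest sum, and knockout replicate 1 of day 8 the highest sum and the lowest relative depth. Without this knockout library, 3 of the 4 calls at day 8 described below stood (Slc8a1, Ryr2 and Kcnj3). It held 69239 FPKM of mt-Rnr2, a mitochondrial ribosomal RNA. Knockout replicate 3 of day 12 held 53138, and control replicates 1 and 2 of day 3 held 38464 and 49728. All other libraries listed mt-Rnr2 at 0. Knockout minus control was tested for each day separately, on the log2(FPKM + 1) scale, for genes with a mean of at least 1 FPKM over the 6 libraries of the day. A gene was called at an adjusted p under 0.05. This scale understates the fold change of low genes, so the knockout mean is also given as a percentage of the control mean. With 3 libraries against 3, an exact permutation test of a single gene cannot go below 0.1, so calls rest on limma, which pools the spread over genes. In whole embryoid bodies, fewer cells of a type and less RNA per cell cannot be told apart.

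The stretches upstream of 4 of the 9 genes are shown because these genes had different time courses: Slc8a1 and Ryr2 were high in control libraries from day 8, Pln later, and Kcnj3 at day 3. Each line holds the 250 bases before the first transcribed base in RefSeq (build GRCm38.p6), 5′ to 3′ on the gene's strand, at chr17:81738388-81738637 on the minus strand for Slc8a1, chr13:12106946-12107195 on the minus strand for Ryr2, chr10:53337436-53337685 on the plus strand for Pln and chr2:55435720-55435969 on the plus strand for Kcnj3. Capitals mark matches, on either strand, to the GATA motif (GATAA), the TATA box (TATAAA), the CCAAT box and the E-box (CANNTG, where N is any base).
Slc8a1: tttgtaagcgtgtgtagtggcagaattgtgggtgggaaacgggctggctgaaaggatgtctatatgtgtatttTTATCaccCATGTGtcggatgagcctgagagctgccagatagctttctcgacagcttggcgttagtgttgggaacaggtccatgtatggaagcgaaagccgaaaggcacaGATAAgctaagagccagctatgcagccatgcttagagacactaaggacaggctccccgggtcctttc
Ryr2: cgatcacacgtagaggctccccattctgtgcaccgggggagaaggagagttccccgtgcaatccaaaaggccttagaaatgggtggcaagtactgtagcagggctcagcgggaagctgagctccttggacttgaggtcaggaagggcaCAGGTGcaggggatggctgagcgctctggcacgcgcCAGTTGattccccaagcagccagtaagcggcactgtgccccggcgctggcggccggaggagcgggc
Pln: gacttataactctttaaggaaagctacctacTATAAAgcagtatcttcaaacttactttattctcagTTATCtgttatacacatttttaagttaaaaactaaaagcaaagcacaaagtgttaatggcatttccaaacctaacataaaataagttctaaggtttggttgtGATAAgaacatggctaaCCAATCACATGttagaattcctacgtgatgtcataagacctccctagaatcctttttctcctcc
Kcnj3: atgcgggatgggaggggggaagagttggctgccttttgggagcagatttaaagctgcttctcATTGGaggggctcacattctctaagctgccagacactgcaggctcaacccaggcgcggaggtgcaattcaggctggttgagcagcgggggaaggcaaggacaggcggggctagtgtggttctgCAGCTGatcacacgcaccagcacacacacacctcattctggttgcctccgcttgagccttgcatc
GATAA occurred 2 times upstream of Slc8a1 and 2 times upstream of Pln, and in 22.5% of all 32536 RefSeq promoter windows of this length. The TATAAA match was in Pln (12.3% of windows), CCAAT was in Pln and Kcnj3 (33.8% of windows), and the E-box was in each of the 4 (66.2% of windows). In Pln, CCAAT and the E-box lay side by side without overlap. GGGCGG, the CArG box and the MEF2 motif were searched as well and had no match in these 4 windows. The Pln window held 32.8% G and C and 1 CpG, against 63.2% and 14 for Ryr2, 50.4% and 8 for Slc8a1, 58.4% and 7 for Kcnj3, and a median of 52.4% and 6 over all windows. A match describes these letters only. No binding was measured in these libraries, and the bases just after the Slc8a1 start were not found in the annotated GENCODE transcripts of that gene.

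The 9 genes differed widely in level and timing. In control libraries at day 10, Slc8a1 stood first with 83.5 ± 6.94 FPKM (SD, n = 3) and Atp2a2 next with 69.8 ± 8.34, followed by Pln with 9.96 ± 1.04, Ryr2 with 9.55 ± 0.393, Cacna1c with 3.87 ± 0.775, Kcnj3 with 1.99 ± 0.698 and Hcn4 with 1.01 ± 0.0837. Casq2 and Sln lay below 1 FPKM on that day. At day 0 the order was another one: Atp2a2 had 68.1 ± 1.78 FPKM and Kcnj3 1.74 ± 0.551, while the other 7 genes were below 1 FPKM. Whether the 6 tables were scaled to each other is not known, so levels are described across days without a test.

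**Figure D1:**
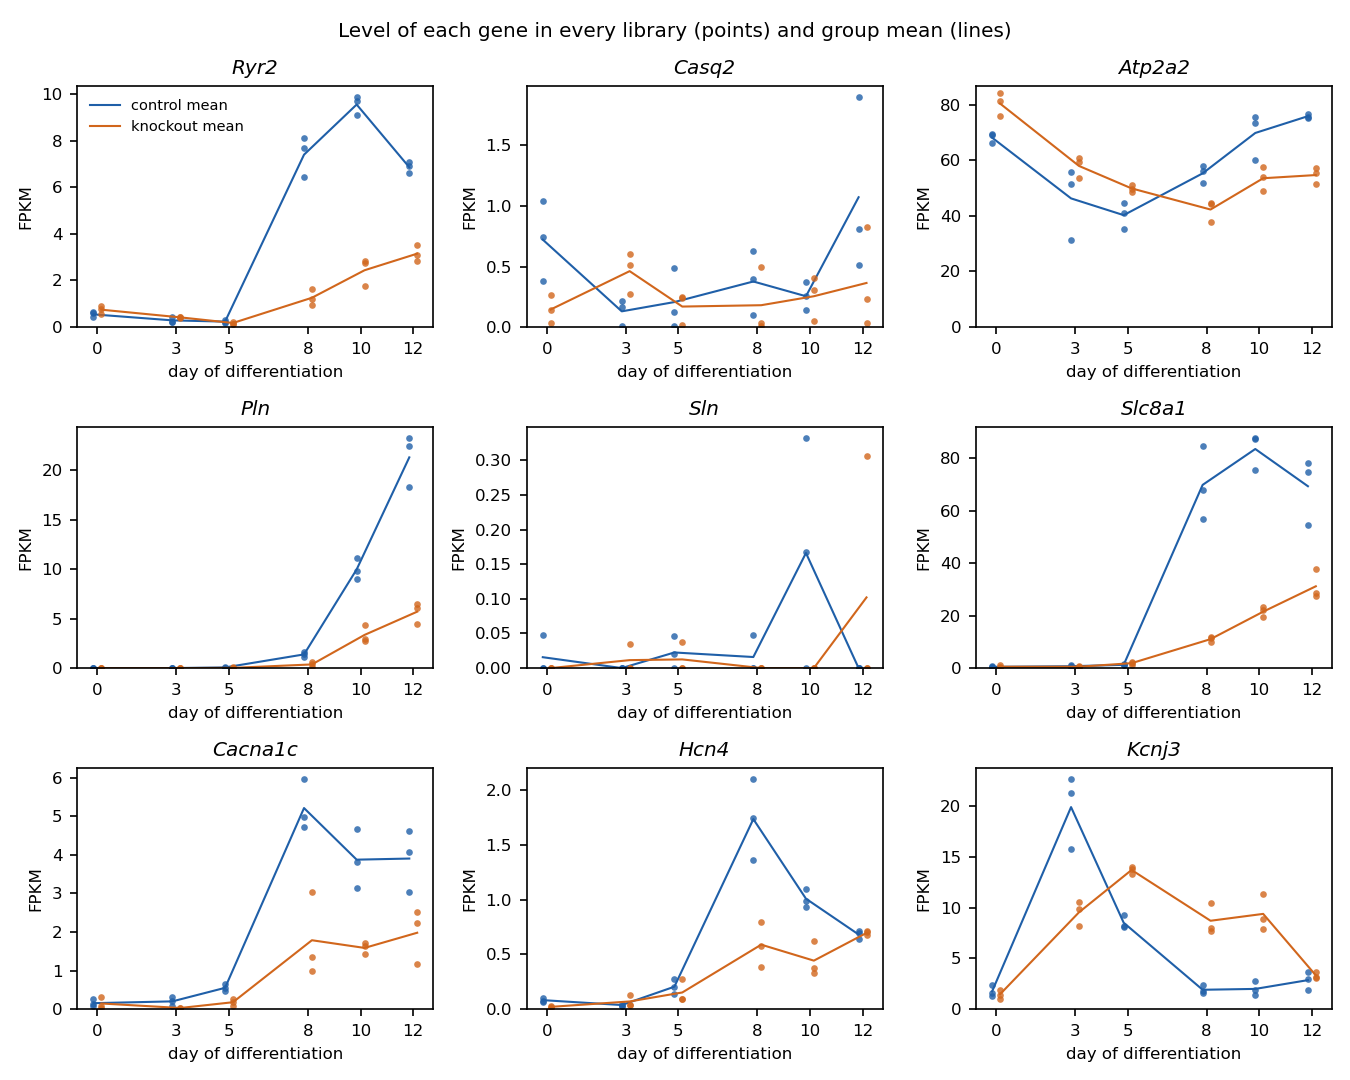
FPKM of the 9 genes (vertical axes, each with its own scale) by day of differentiation (horizontal axes), with a point for each library and a line through the means of 3 control (blue) or 3 knockout (orange) libraries; points are shifted slightly sideways for clarity. Control means of Slc8a1, Ryr2, Cacna1c and Hcn4 were at most 1.24 FPKM to day 5 and stood above the knockout means at day 8, Pln followed later, and Kcnj3 was at its highest in control libraries at day 3, at 19.9 FPKM.

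Over the 6 days, 54 comparisons of a gene and a day were possible. The level allowed a test in 25 of them, 12 were called lower and 4 higher in the knockout, and 29 were left untested. Of the 7 genes that were tested on any day, 6 were called at least once. Hcn4 was tested at day 8 alone and not called, and Casq2 and Sln were below the limit on all days. At day 8, 3 of 6 tested genes were called lower (Slc8a1, Ryr2, Cacna1c) and 1 higher (Kcnj3), where 2% of 12695 genes were called lower and 1.28% higher. At day 10, 4 of 6 were lower (the same 3 and Pln) and Kcnj3 higher, where 5.12% of 12938 genes were called lower and 15% higher. At day 12, 4 of 6 were lower (Slc8a1, Ryr2, Pln, Atp2a2) and none higher, where 3.48% of 13089 genes were called lower and 3.22% higher. The median difference of the tested genes was -1.0, -1.13 and -0.83 at days 8, 10 and 12, and that of all genes tested was 0.09, 0.17 and 0.05. Rescaling the libraries by the median of ratios brought the all-gene median from 0.15 to 0.01 at day 3, from 0.13 to 0.0040 at day 5 and from 0.17 to 0.0014 at day 10. It also moved the split of all calls, from 130 higher and 80 lower to 212 and 324 at day 3. The split went from 880 and 413 to 647 and 866 at day 5, and from 163 and 254 to 251 and 480 at day 8. It went from 1946 and 663 to 1232 and 1478 at day 10, and from 422 and 456 to 344 and 641 at day 12. The all-gene median of day 8 went from 0.09 to -0.0027. Each of the 16 calls on the calcium and channel genes was also made after this rescaling, and Atp2a2 was called lower at days 8 and 10 as well (adjusted p = 0.0150 and 0.00194). Groups without overlap were common over all genes tested. At day 8 all knockout libraries lay below control in 1076 and above it in 1802 of 12695 genes. These counts were 1225 and 4004 of 12938 at day 10, and 1544 and 2379 of 13089 at day 12. Earlier they were 2397 and 2050 of 12197 at day 0, 362 and 1732 of 11976 at day 3, and 975 and 3247 of 12447 at day 5.

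**Figure D2:**
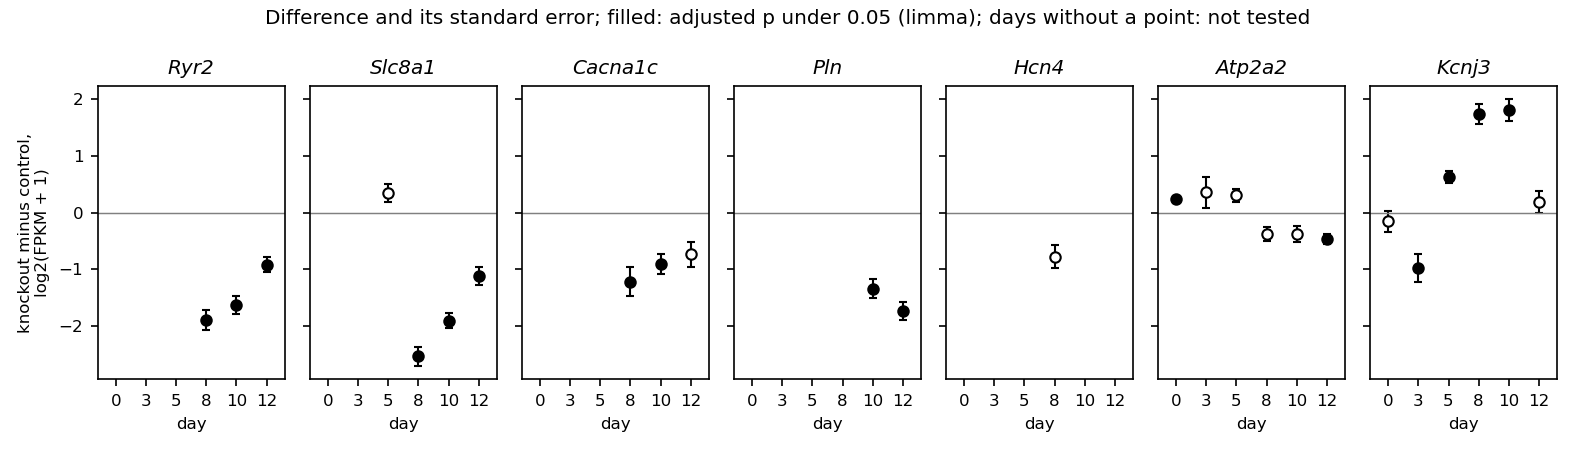
Knockout minus control difference on the log2(FPKM + 1) scale (vertical axis) with its standard error from limma, by day (horizontal axis), for the 7 genes tested on at least 1 day; filled points were called. Ryr2 and Slc8a1 lie lowest at day 8 (-1.90 and -2.54) and nearer 0 at day 12 (-0.92 and -1.12), Pln lies at -1.35 and then -1.74, and Kcnj3 goes from -0.98 at day 3 to 1.81 at day 10.

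Cacna1c encodes the pore of the L-type channel, the main way in for calcium in heart muscle. At day 8 its control libraries held 4.71, 4.97 and 5.95 FPKM and its knockout libraries 0.974, 1.35 and 3.03. The groups did not overlap, although knockout replicate 3 lay well above the other two. The knockout mean was 34.2% of control, a difference of -1.22 (SE 0.26, adjusted p = 0.0300). This call was lost when any library of day 8 other than knockout replicate 3 was left out: the adjusted p became 0.0833, 0.105 and 0.0996 on leaving out control replicate 1, 2 or 3, and 0.0914 and 0.0936 on leaving out knockout replicate 1 or 2. At day 10 control libraries held 3.13, 4.68 and 3.82 FPKM and knockout libraries 1.72, 1.62 and 1.42, again without overlap, at 40.9% of control (difference -0.90, SE 0.17, adjusted p = 0.00393). At day 12 the values were 3.02, 4.61 and 4.07 in control and 2.52, 1.18 and 2.24 in knockout. The groups were still apart, with a knockout mean at 50.7% of control, and the test did not call the difference (-0.74, SE 0.22, adjusted p = 0.0789). At day 5, below the limit for testing, control libraries already held 0.458 to 0.655 FPKM and knockout libraries 0.0895 to 0.257.

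Slc8a1 encodes the sodium-calcium exchanger NCX1, which expels calcium after each beat. Its control libraries went from 1.10 to 1.40 FPKM at day 5 to 67.7, 84.8 and 57.0 at day 8, where knockout libraries held 11.4, 11.9 and 9.75. At day 10 control libraries held 87.5, 87.5 and 75.5 FPKM and knockout libraries 19.4, 23.1 and 22.0, and at day 12 they held 74.9, 54.7 and 78.3 against 37.6, 28.4 and 27.5. The groups were apart on each of these 3 days, while the knockout libraries of day 12 were above those of day 10 and these above those of day 8. The knockout mean was 15.8%, 25.7% and 45.0% of control at days 8, 10 and 12. The differences were -2.54 (SE 0.16, adjusted p = 3.88e-05), -1.91 (SE 0.13, adjusted p = 2.72e-06) and -1.12 (SE 0.16, adjusted p = 0.00551). At day 5 the groups overlapped, with 1.24 ± 0.153 FPKM in control and 1.87 ± 0.487 in knockout (n = 3 each), and the difference of 0.34 was not called (adjusted p = 0.196). The highest knockout mean, 31.2 FPKM at day 12, was 37.3% of the highest control mean.

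Ryr2 encodes the ryanodine receptor that releases the store. Control libraries held 6.42, 7.67 and 8.11 FPKM at day 8, and knockout libraries 1.20, 0.945 and 1.63. At day 10 the values were 9.86, 9.11 and 9.69 in control and 1.76, 2.74 and 2.82 in knockout, and at day 12 they were 6.60, 6.91 and 7.08 against 3.098, 2.84 and 3.52. The groups did not overlap on any of these days, and the highest knockout library of day 12 was below the lowest control library of day 8. The knockout mean was 17.0% of control at day 8 (difference -1.90, SE 0.18, adjusted p = 0.000314). It was 25.5% at day 10 (-1.63, adjusted p = 3.85e-05) and 45.9% at day 12 (-0.92, adjusted p = 0.00550). Undifferentiated cells already held 0.418 to 0.635 FPKM in control and 0.557 to 0.913 in knockout, levels that overlapped and were above those of day 5 (0.145 to 0.301 over both genotypes). Casq2, the calcium-binding protein that fills the store in mature heart, ranged from 0.00751 to 1.90 FPKM over the 36 libraries, with no group mean above 1.07 FPKM. It thus stayed untested, and at days 8, 10 and 12 its groups overlapped.

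Atp2a2 encodes the SERCA2 pump, one form of which is found in many tissues besides heart. Its level was at least 31.5 FPKM in each of the 36 libraries and at most 84.1 FPKM. The lowest value was that of control replicate 1 of day 3, without which the difference of that day was 0.11 in place of 0.36, neither of them called. At day 0 control libraries held 68.9, 66.1 and 69.4 FPKM and knockout libraries 81.3, 84.1 and 75.9. The knockout stood above control without overlap, at 118% of it (difference 0.23, SE 0.06, adjusted p = 0.0324), on a day when 6.49% of 12197 genes were called higher and 8.03% lower. Leaving out control replicate 1, 2 or 3 or knockout replicate 1 or 2 ended this call (adjusted p = 0.0661, 0.107, 0.0749, 0.0890 and 0.0942). At day 12 the values were 75.6, 76.7 and 75.2 in control and 57.3, 55.3 and 51.5 in knockout. Here the knockout was below control without overlap, at 72.1% (-0.47, SE 0.09, adjusted p = 0.0200), and leaving out any library brought the adjusted p to between 0.0507 and 0.0731. At days 8 and 10 the knockout libraries were also all below the control libraries, at 76.5% and 76.7% of the control mean, with adjusted p = 0.160 and 0.0738. Without control replicate 3 of day 10, the lowest of its group at 60.3 FPKM, the adjusted p of that day was 0.0229. These percentages lay closer to control than those of Ryr2 and Slc8a1 on the same days, a difference between genes that was not tested.

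Pln encodes phospholamban, the inhibitor of the SERCA pump. It was listed at 0 in the 12 libraries of days 0 and 3. At day 8 control libraries held 1.42, 1.64 and 1.08 FPKM and knockout libraries 0.137, 0.582 and 0.387, which is below the limit for testing. At day 10 the values were 9.02, 9.79 and 11.1 in control and 2.75, 2.93 and 4.37 in knockout, and at day 12 they were 23.2, 22.4 and 18.2 against 6.10, 4.48 and 6.51. The groups were apart on each of the 3 days, and control libraries of day 12 were all above those of day 10. The knockout mean was 26.7% of control at day 8, 33.6% at day 10 (difference -1.35, SE 0.17, adjusted p = 0.000208) and 26.8% at day 12 (-1.74, SE 0.15, adjusted p = 0.000585). Exons of Pln overlap those of the antisense annotations Gm47644 and Cep85l in GENCODE M21, and the strand used in counting is not given in the sources used here, so reads of these genes cannot be told apart. The same limit holds for exon bases that Slc8a1 shares with AC122399.1 (296 bases) and Gm11096 (8) on the opposite strand. It also holds for 83 bases that Atp2a2 shares with Gm43361. Sln, which encodes sarcolipin, a relative of phospholamban found in atrial and skeletal muscle, was listed at 0 in 27 of 36 libraries and reached 0.332 FPKM at most, in control replicate 3 of day 10. An exact 0 in these tables can also be a failed estimate.

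Hcn4 encodes the main pacemaker channel of the heart. Its highest control mean came at day 8, where control libraries held 1.36, 2.10 and 1.75 FPKM and knockout libraries 0.581, 0.388 and 0.799. The groups did not overlap and the knockout mean was 33.9% of control, but the difference was not called (-0.78, SE 0.20, adjusted p = 0.0718). All knockout libraries lay below control in 1076 of 12695 genes that day. At day 10 the values were 0.991, 1.10 and 0.937 in control and 0.377, 0.625 and 0.326 in knockout. At day 12 they were 0.694, 0.715 and 0.637 against 0.702, 0.713 and 0.674, so that the groups, apart at day 10, overlapped. The knockout mean went from 43.9% to 102% of control between these days, with both days below the limit for testing.

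Kcnj3 encodes GIRK1, a subunit of the potassium channel that acetylcholine opens in atrial and pacemaker cells and that is also found in neurons. It was the member with the opposite course. At day 3 control libraries held 15.8, 22.7 and 21.3 FPKM and knockout libraries 9.88, 10.6 and 8.16, a knockout mean at 47.9% of control (difference -0.98, SE 0.24, adjusted p = 0.0228), where 0.668% of 11976 genes were called lower and 1.09% higher. The groups were apart, but the call was lost without control replicate 2 (adjusted p = 0.126), knockout replicate 1 (0.0977) or knockout replicate 3 (0.184). At day 5 the order was turned round, with 8.05, 9.26 and 8.24 FPKM in control and 13.3, 14.1 and 13.8 in knockout (161% of control, difference 0.63, SE 0.11, adjusted p = 0.00419), where 7.07% of 12447 genes were called higher and 3.32% lower. At day 8 control libraries held 2.38, 1.74 and 1.60 FPKM and knockout libraries 7.66, 10.4 and 8.04, and at day 10 they held 2.75, 1.85 and 1.37 against 8.90, 11.3 and 7.93. The knockout was above control without overlap on both days, at 457% (difference 1.74, SE 0.18, adjusted p = 0.000577) and 472% of control (1.81, SE 0.19, adjusted p = 5.63e-05). At day 12 the groups overlapped, with 2.98, 3.68 and 1.90 FPKM in control and 3.69, 3.21 and 3.08 in knockout, and the difference of 0.19 was not called (adjusted p = 0.601). The control mean was at its highest at day 3, with 19.9 FPKM, and the knockout mean at day 5, with 13.7 FPKM. Exons of Kcnj3 overlap the antisense annotation Gm26794, whose reads cannot be told apart from its own here.

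Kcnj5 encodes GIRK4, the partner of GIRK1 in the atrial channel, and did not share this course. Its control libraries held 3.17, 4.09 and 3.59 FPKM at day 8 and its knockout libraries 1.07, 1.04 and 1.35. The knockout mean was 31.9%, 36.5% and 40.5% of control at days 8, 10 and 12 (differences -1.10, -1.04 and -0.91, adjusted p = 0.00844, 0.00132 and 0.0147). Kcnj3 and Kcnj5 thus lay on opposite sides of control at days 8 and 10. Kcnj6, which encodes the neuronal partner GIRK2, was at most 0.161 FPKM in each library.

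Whether the effect of the deletion differed between days was tested with limma over all 36 libraries. All 7 tested genes passed the F test for a difference between the 6 days, as did 18.1% of 14459 genes. With a pseudocount of 0.1 FPKM in place of 1, Cacna1c no longer passed (adjusted p = 0.403). A mean of 1 FPKM on any 1 day was enough to enter. Ryr2, Cacna1c, Pln and Hcn4 were below this limit at days 0, 3 and 5, where the scale holds differences near 0. Pln was below it at day 8 as well, and Hcn4 at days 10 and 12. Slc8a1 was below the limit at days 0 and 3, and its difference at day 5 was not called. For these 4 genes and Slc8a1 the F test thus adds little to the differences seen from day 8. For the change from day 8 to day 12 alone, 5 of the 7 passed, against 4.07% of all genes. The knockout effect was less negative at day 12 for Ryr2 (by 0.98, adjusted p = 0.000681), Slc8a1 (by 1.42, adjusted p = 0.00234) and Hcn4 (by 0.80, adjusted p = 0.00105). For Kcnj3 the effect was lower by 1.55 (day 12 minus day 8: -1.55, adjusted p = 0.000296). For Pln the difference between effects was -0.94 (adjusted p = 0.00280), although the knockout mean was nearly the same percentage of control on both days, and with the lower pseudocount it was -0.12 (adjusted p = 0.955). With that pseudocount the values for Slc8a1 (1.49, adjusted p = 0.265) and Hcn4 (1.47, adjusted p = 0.0780) no longer passed, while Ryr2 and Kcnj3 did. Cacna1c (0.49, adjusted p = 0.443) and Atp2a2 (-0.08, adjusted p = 0.912) did not pass. Without knockout replicate 3 of day 8, the value for Cacna1c was 0.79 (adjusted p = 0.0462).

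Genes most like each member were found by Pearson correlation of log2(FPKM + 1) over the 36 libraries among 14459 genes. These values describe libraries that share their day and genotype, and they carry no test. Ryr2 was most like Mybpc3 (r = 0.987), a sarcomere protein gene, Hspb7 (r = 0.982), a small heat shock protein gene of muscle, and Asb2 (r = 0.981). Slc8a1 was most like Trim55 (r = 0.989), Myom1 and Gyg (both r = 0.988), and Cacna1c was most like Myom1 (r = 0.965), Mylk3 and Rcsd1 (both r = 0.962). Trim55, Myom1 and Mylk3 encode proteins of the sarcomere or its regulators. Pln was most like Vcam1 (r = 0.982), a cell adhesion gene, Dkk2 (r = 0.981), a Wnt antagonist gene, and Lum (r = 0.979), which encodes a matrix proteoglycan. Atp2a2 had no gene above r = 0.876 (Sdf2l1, a protein of the endoplasmic reticulum), followed by Cdc42ep3 and Mtus2 (both r = 0.861). Kcnj3 was most like Calcr and Pim2 (both r = 0.927) and Enpp2 (r = 0.922). Among the members themselves r was 0.941 for Ryr2 with Slc8a1, 0.950 for Slc8a1 with Cacna1c, 0.856 for Ryr2 with Pln and -0.575 for Ryr2 with Kcnj3.

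**Figure D3:**
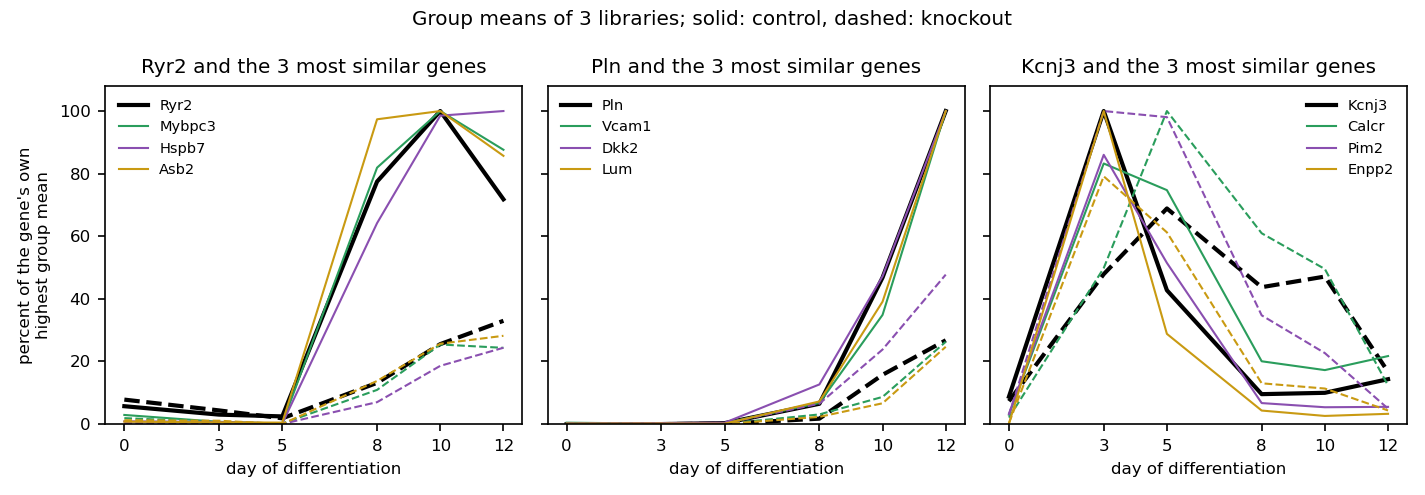
Group mean of 3 libraries as a percentage of the gene's own highest group mean (vertical axis) by day of differentiation (horizontal axis), for Ryr2, Pln and Kcnj3 and the 3 genes most like each; solid lines are control and dashed lines knockout. At day 8 in control, Ryr2 stood at 77.5% of its highest mean and Pln at 6.49%, while Kcnj3 stood at 9.56% in control and 43.7% in knockout.

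Of 93 other genes of the same machinery, in 8 lists, 8 of 47 tested were lower and none higher at day 8 (2% and 1.28% over all genes), 19 of 50 were lower and 3 higher at day 10 (5.12% and 15%), and 7 of 54 were lower and 2 higher at day 12 (3.48% and 3.22%). The higher calls were thus below the share over all genes at day 10 and near it at day 12. The medians of the 93 genes' tested members were -0.15, -0.20 and -0.11 on these days. Earlier, 7 of 38 were lower and 2 higher at day 0 (8.03% and 6.49% over all genes), 1 of 36 was lower at day 3 (0.668%), and 3 of 44 were lower and 6 higher at day 5 (3.32% and 7.07%). The lists thus held both called and uncalled genes on each day, and most of their tested genes were not called.

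In the list of the calcium store and its release, 5 of 9 tested genes were lower in undifferentiated cells at day 0 (median difference -0.46), 2 of 11 lower and 1 higher at day 5, 5 of 14 lower at day 8, 4 of 14 lower and 1 higher at day 10, and 1 of 14 lower at day 12. None of 9 was called at day 3. Over all genes, 8.03%, 3.32%, 2%, 5.12% and 3.48% were called lower at days 0, 5, 8, 10 and 12. The shares called higher were 7.07% at day 5 and 15% at day 10. Trdn encodes triadin, which anchors the ryanodine receptor to calsequestrin. Its knockout mean was 11.5%, 14.1% and 23.3% of control at days 8, 10 and 12 (control 1.90, 2.02 and 2.27 FPKM; adjusted p = 0.0273, 0.00121 and 0.0291). Hrc, a calcium-binding protein of the store, was at 41.1% of control at day 8 (15.5 ± 1.8 FPKM in control, n = 3; adjusted p = 0.00266) and 54.7% at day 10 (adjusted p = 0.00225). Srl, which encodes sarcalumenin, was at 42.2% of control at day 0 (adjusted p = 0.0334) and 34.9% at day 8 (adjusted p = 0.00454). Itpr1, an inositol trisphosphate receptor gene, was at 67.9% at day 0 and 74.5% at day 5 (adjusted p = 0.00647 and 0.0336). Casq1, the calsequestrin of skeletal muscle, was higher than Casq2 in control libraries of day 8, at 3.68 ± 1.05 FPKM, and its knockout mean was 28.6% of control (adjusted p = 0.0306). Jph1, a junction protein, was the gene called higher at day 10, at 234% of control (adjusted p = 0.00309). Calr, which encodes calreticulin, the calcium buffer of the endoplasmic reticulum in most cells, was the highest gene of this list, with 427 ± 39.3 FPKM in control and 426 ± 49.8 in knockout at day 8 (adjusted p = 0.988).

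Among 14 calcium channel subunits, 2 of 7 tested were lower at day 8, 4 of 8 at day 10 and 2 of 9 at day 12, and none was higher on these days. The shares over all genes were 2%, 5.12% and 3.48% lower and 1.28%, 15% and 3.22% higher. Cacna1d, the other L-type pore gene of the heart and active in pacemaker cells, was at 23.1% of control at day 8 (3.28 FPKM in control, adjusted p = 0.00268), and at 33.1% and 41.6% of it at days 10 and 12 (adjusted p = 0.00346 and 0.0440). Cacna2d2, an auxiliary subunit, was at 26.9%, 40.5% and 28.8% (adjusted p = 0.00944, 0.00159 and 0.00550). Cacna1h, a T-type pore gene, was at 218% of control at day 5 (adjusted p = 0.0148) and at 38.7% at day 10 (adjusted p = 0.000670), so that it was called in opposite directions on these days. Of 9 pumps and exchangers, Atp2b4, a calcium pump of the plasma membrane, was called lower at days 0, 10 and 12, at 51.2%, 50.5% and 60.6% of control (adjusted p = 0.0258, 0.000842 and 0.00664), and none of the 4 tested at day 8 was called. None of 10 sodium channel subunits was called on any day, with at most 3 tested.

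Of 21 potassium channel subunits, 1 of 5 tested was lower at day 8, 2 of 5 at day 10 and 2 of 6 at day 12. The shares over all genes, for this and the next lists, were 2%, 5.12% and 3.48% lower and 1.28%, 15% and 3.22% higher. Beside Kcnj5 the potassium channel genes called were Kcnh2, the channel of the rapid repolarizing current, at 60.6% of control at day 10 (adjusted p = 0.0312), and Kcnj2, an inward rectifier, at 57.6% at day 12 (adjusted p = 0.0484). Among 3 connexin genes of the heart, Gja1, which encodes connexin 43, was at 38.7% of control at day 3 (adjusted p = 0.00246) and at 166% and 160% at days 10 and 12 (adjusted p = 0.00414 and 0.0137). Of 17 genes of calcium-dependent kinases and of adrenergic and muscarinic control, 7 of 15 tested were lower and 1 higher at day 10, none of 13 was called at day 8, and 1 of 15 was called at day 12, Ppp1r1a, higher (206% of control, adjusted p = 0.0403). Pde3a, a phosphodiesterase that limits cyclic AMP in heart muscle, was at 36.9% of control at day 10 (adjusted p = 0.000259), and Camk2a and Adcy5 at 43.6% and 34.6% (adjusted p = 0.00482 and 0.0113).

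**Figure D4:**
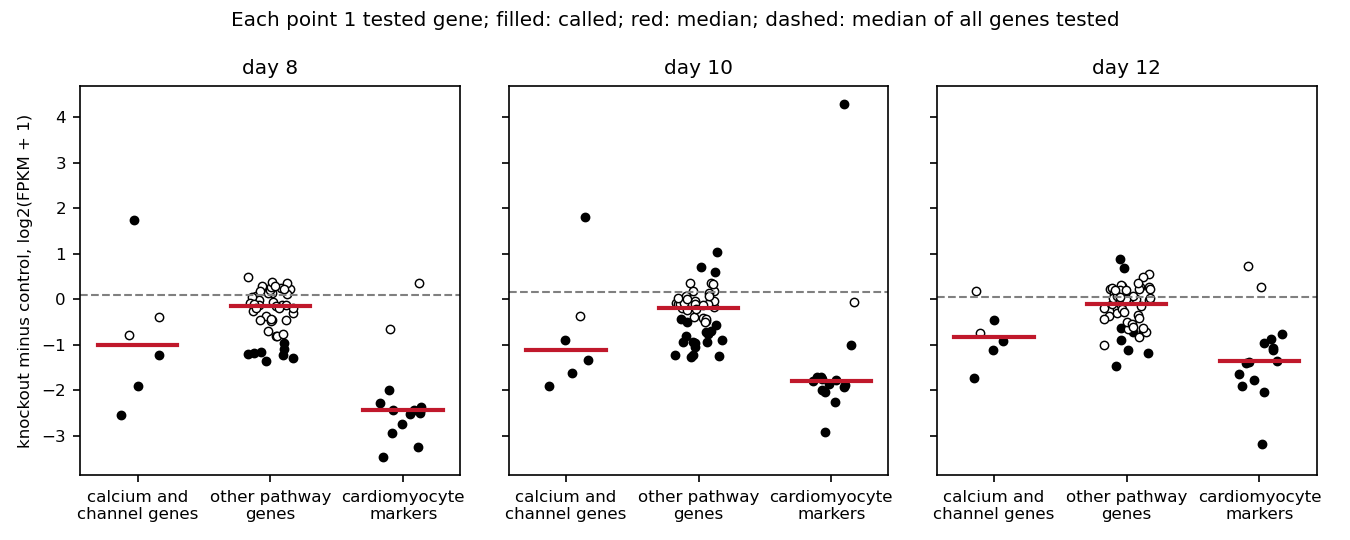
Knockout minus control difference on the log2(FPKM + 1) scale (vertical axis) of each tested gene at days 8, 10 and 12, for the members described here, for the 93 other genes of ion handling and for 16 cardiomyocyte markers; filled points were called, red bars are medians and the dashed line is the median of all genes tested. At day 8 the medians were -1.0, -0.15 and -2.44, and the isolated high point of the markers at day 10 is Ttn, listed at 0 in each control library of that day.

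Markers of heart muscle moved in the same direction. Over all genes, 2%, 5.12% and 3.48% were called lower at days 8, 10 and 12, and 15% higher at day 10. Of 16 cardiomyocyte markers, 12 of 14 tested were lower at day 8 (median difference -2.44), 13 of 15 lower and 1 higher at day 10 (median -1.80), and 13 of 15 lower at day 12 (median -1.35). Their summed level was 1434 to 1697 FPKM in control libraries and 225 to 319 in knockout libraries at day 8, 1428 to 1474 against 326 to 495 at day 10, and 1122 to 1313 against 420 to 500 at day 12. Myl4, an atrial and embryonic myosin light chain gene, was at 19.0%, 30.6% and 47.0% of control on these days (adjusted p = 0.000314, 1.09e-05 and 0.00653), and Actc1, cardiac actin, at 17.3%, 26.6% and 38.3% (adjusted p = 4.52e-05, 1.84e-05 and 0.000585). The percentages of Ryr2 and Slc8a1 lay near these, and those of Atp2a2 well above them. Cacna1c, at 34.2%, 40.9% and 50.7%, lay above both Myl4 and Actc1 on each day, as did Hcn4 and Kcnj3. Pln, at 26.7%, 33.6% and 26.8%, lay above both at days 8 and 10 and below both at day 12. What part the movement of the markers had in the differences of the calcium and channel genes was not tested. Ttn, the gene called higher at day 10, was listed at 0 in 9 of the 18 libraries of days 8 to 12 and at 75.5 FPKM in control replicate 1 of day 8, so its zeros may be failed estimates. Tnnc1 has 2 entries, of which the one with the current identifier was used, at 0.724 FPKM in control at day 8. The other entry held most of its signal, so the marker sums and tests leave that part out. Among the pathway genes, Pde4d and Scn8a also have 2 entries each, and the same choice was made.

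Other cell types that an embryoid body can hold were covered by 7 further marker lists. Over all genes, 2%, 5.12% and 3.48% were called lower at days 8, 10 and 12, and 1.28%, 15% and 3.22% higher. Skeletal muscle markers summed to at most 8.84 FPKM in any library of the series, with Myf6 listed at 0 in control libraries of days 8, 10 and 12. Smooth muscle markers, led by Acta2, had 1 of 5 tested higher at day 8, 1 of 5 lower at day 10 and 0 of 5 called at day 12, with sums at day 12 of 608 to 675 FPKM in control and 616 to 724 in knockout. Neuron markers summed to 22.3 to 24.4 FPKM in control and 35.1 to 47.9 in knockout at day 8, with 1 of 4 tested called higher at day 8, 1 of 4 at day 10 and 1 of 6 at day 12. Pluripotent cell markers summed to 72.6 to 78.3 FPKM in control and 121 to 185 in knockout at day 8, with 2 of 6 higher then, 5 of 6 at day 10 and 0 of 6 at day 12. Endothelial markers were lower for 3 of 6 at day 8, 5 of 6 at day 10 and 2 of 6 at day 12. Visceral endoderm markers were called for 0 of 6 at day 8, were lower for 4 of 6 at day 10 and for 1 of 6 at day 12. Of the 6 pacemaker and conduction markers, 1 of 3 tested was lower on each of days 8, 10 and 12. At day 0 neuron markers, led by Stmn2, had mean sums of 148 FPKM in control and 157 in knockout, while Kcnj3 had 1.74 and 1.46. These were the lowest means of Kcnj3 in each genotype, in undifferentiated cells, although they overlapped with those of other days. Of 5 pluripotent cell markers tested at day 0, 1 was higher and 1 lower in the knockout (6.49% and 8.03% over all genes). At day 3 Kcnj3 was lower in the knockout, while the neuron sums overlapped (20.2 to 31.5 FPKM in control, 22.9 to 25.9 in knockout). None of 7 neuron and none of 5 pluripotent cell markers tested was called at day 3. At day 5, when Kcnj3 was higher, 2 of 3 neuron and 2 of 5 pluripotent cell markers were higher (7.07% over all genes). At days 8 and 10, when Kcnj3 was higher in the knockout, the sums of pluripotent cell and neuron markers were higher there too. At day 12, when Kcnj3 overlapped between the groups, the pluripotent cell sums overlapped as well (56.6 to 119.9 FPKM in control and 62.4 to 82.9 in knockout), while the neuron sums were still apart (25.6 to 30.0 FPKM in control and 35.8 to 39.8 in knockout). Their part in the level of Kcnj3 was not tested.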

How the data were processed

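The authors deposited FPKM values in 6 tables, 1 per day, each with 6 libraries. Per the submitters' processing notes the tools were TopHat and Cufflinks with mouse build mm9. Versions, settings and the scaling between tables are not given in the sources used here. A gene with a large share of a library lowers all its other FPKM values. Values were set on the log2(FPKM + 1) scale and tested within each day with limma 3.58.1 in R 4.3.3 (lmFit, eBayes with a variance trend), two-sided, for genes that averaged at least 1 FPKM over the day, with Benjamini-Hochberg adjustment over all genes tested. Differences between days used a genotype by day interaction over 36 libraries. The model was also run on simulated data, whose outcome is not given here. Changes were placed only in genes of higher level and noise was independent between libraries. Low genes and spread shared between libraries were thus not covered. Other steps used Python 3.11.15 with numpy 2.4.6, pandas 2.3.3 and matplotlib 3.10.9.

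All 9 members are named. Of 8 pathway lists, up to 4 called genes per list and day with the largest change could be named, as could genes of 5 FPKM or more; of marker lists, the highest gene or those at 0; for likeness, the 3 highest r. The result of 1 pathway list is not reported here. Members and lists were chosen with earlier results of these data known. The Ttn and Tnnc1 values were named after they were seen. Same-numbered libraries were at most weakly alike (same-number r between -0.123 and 0.273 across genes). No block is stated in the sources used here, so the main test has none. At day 3, however, mt-Rnr1, a mitochondrial ribosomal RNA, was high in replicate 1 of both genotypes (34334 FPKM in control, 32162 in knockout). The other libraries of that day held 13889 to 17567 FPKM. Whether libraries were paired on some days is thus not known. Alternatives were another pseudocount, other filters on low values, rescaling, quantile normalization, no variance trend, a replicate block and each library left out.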

Additional observations from a re-analysis of the deposited data

Results flagged for a closer look

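Each of the 7 genes tested passed limma's F test over 36 libraries for a knockout effect that differed between days (18.1% of all genes passed it). The adjusted p was 7.12e-11 for Ryr2, 4.01e-09 for Kcnj3, 9.12e-09 for Slc8a1, 1.21e-08 for Pln, 0.000310 for Hcn4, 0.000802 for Atp2a2 and 0.00735 for Cacna1c. With a pseudocount of 0.1 FPKM in place of 1, Cacna1c did not pass (adjusted p = 0.403). Ryr2, Cacna1c, Pln and Hcn4 were below the limit for testing at days 0, 3 and 5. Slc8a1 was below it at days 0 and 3 and was not called at day 5. The pass of these genes thus adds little to the differences seen from day 8. For Atp2a2 the sign of the difference changed, from 0.23 at day 0 to -0.47 at day 12.

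Between day 8 and day 12 alone, the effect moved by 0.98 for Ryr2, 1.42 for Slc8a1 and 0.80 for Hcn4, each towards 0. With the lower pseudocount Ryr2 kept its call (1.39, adjusted p = 0.0218), and Slc8a1 (adjusted p = 0.265) and Hcn4 (adjusted p = 0.0780) lost theirs. The effect moved by -1.55 for Kcnj3, from a higher level in the knockout to overlapping groups. For Pln it moved by -0.94 on the log2(FPKM + 1) scale, while the knockout mean was 26.7% of control at day 8 and 26.8% at day 12, and with the lower pseudocount it was -0.12 (adjusted p = 0.955).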

How the results depend on the processing

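The 16 calls on single genes and days were recomputed 205 times under the alternatives: 176 values kept their direction and their side of the threshold, 29 lost the call and none changed sign. The count of called genes at day 0 was 1 and became 0 without the filter on low values, with quantile normalization, without the variance trend and with the replicate block, and lay between 0 and 1 over the fits that left out a library. The count at day 3 was 1 and became 0 without the filter, and lay between 0 and 1 over the fits that left out a library. The count at day 8 was 4 and became 2 with a filter at 5 FPKM, under which 3 of the genes were tested. The day 12 difference of Kcnj3 was -0.00082 without control replicate 3, and 0.34 at most, without control replicate 2.

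With the replicate block, Atp2a2 lost its calls at day 0 (adjusted p = 0.0857) and day 12 (0.0595). The block gave fewer calls over all genes at day 0 (824 in place of 1770) and day 12 (464 in place of 878). It gave more at day 3 (342 in place of 210), day 8 (590 in place of 417) and day 10 (2825 in place of 2609). At day 5 it gave 1300 in place of 1293. Without the filter, Cacna1c lost its calls at day 8 (adjusted p = 0.182) and day 10 (0.0530), Kcnj3 at day 3 (0.311) and Slc8a1 at day 12 (0.0670). Quantile normalization gave 0.0516 for Cacna1c at day 8. Without the variance trend, Hcn4 was called at day 8 (adjusted p = 0.0376). The unknown depth limits what can be said of Casq2, Sln and Hcn4, which lay near or under 1 FPKM.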
